A study of Mus musculus with 6 samples.

Results

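The genes described here encode the enzymes that break down the branched-chain amino acids leucine, isoleucine and valine, carry propionyl-CoA into the citrate cycle, and use ketone bodies. All probe sets annotated to exactly 1 of 29 listed genes were taken, which gave 59 probe sets for 29 of the 18193 genes that the array names alone. Transcripts were measured on 6 one-colour oligonucleotide arrays of 3T3-L1 cells, an established mouse line derived from embryo fibroblasts and widely used because it differentiates into adipocytes. The tested arrays came from 3 cultures treated with resveratrol (T1 to T3), a plant polyphenol, and the others from 3 control cultures (CT1 to CT3). The labels give no dose, no duration and no state of differentiation for either group, and no genetic change. All values come from 1 cell line, and the labels do not tell whether replicate cultures were independent, so a p-value here reflects the scatter of these samples alone, which may be technical.

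Branched-chain amino acids are broken down in mitochondria. An aminotransferase removes the amino group, and the branched-chain ketoacid dehydrogenase complex then commits the carbon skeleton to oxidation; a kinase switches this complex off and a phosphatase switches it on. Leucine ends as acetyl-CoA and acetoacetate, valine as propionyl-CoA, and isoleucine as both acetyl-CoA and propionyl-CoA. Propionyl-CoA is carboxylated and rearranged by a cobalamin-dependent mutase to succinyl-CoA. Fat cells raise this pathway as they differentiate, and its carbon feeds their fatty acid synthesis.

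Most genes of the route from branched-chain amino acid to succinyl-CoA fell with resveratrol. Each gene was represented by its probe set of highest mean level, and 28 of the 29 genes were bright enough to be tested. Of these, 19 fell, 0 rose and 9 did not pass (limma, Benjamini-Hochberg adjusted over all 27022 probe sets tested, threshold 0.05). Over all 12630 genes tested, 5.21% fell and 5.32% rose by the same rule. The median change of the 28 genes was -0.53 on the scale of log2(intensity + 16), resveratrol minus control, against 0.02 over all genes tested. The 19 genes that fell were 21.3% to 53.9% lower in mean intensity. Every one lay among the 10% of genes with the deepest falls, which adds no support, because these genes were picked by their fall. In 20 of the 28 genes all 3 resveratrol arrays lay below all 3 control arrays, against 13.7% of all genes tested. By probe set, 25 of 53 tested fell and 0 rose, against 4.22% and 3.95% of all probe sets tested. In bulk RNA of this kind, fewer cells that carry a transcript and less of it per cell cannot be told apart.

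The shift was alike on the 3 treated arrays. The median of the 28 genes, relative to the control mean, was -0.50, -0.46 and -0.57 in resveratrol replicates 1, 2 and 3, against 0.0093, 0.0016 and -0.02 in control replicates 1, 2 and 3. Thus 25, 24 and 25 of the 28 genes lay below the control mean on the treated arrays, against 14, 14 and 16 on the control arrays. The control arrays lie near 0 by construction, since each gene was centred on their own mean.

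**Figure D1:**
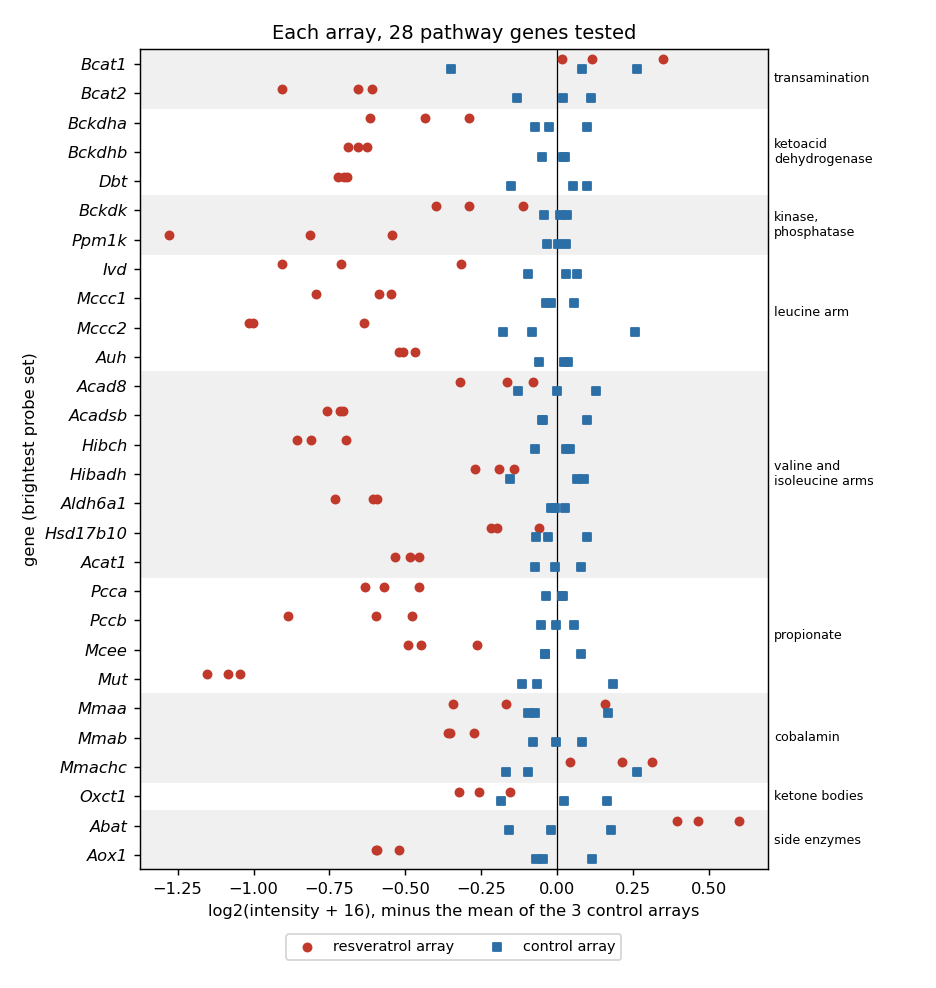
Level of each of the 28 tested genes on each array, as log2(intensity + 16) minus the mean of the 3 control arrays; circles are resveratrol arrays, squares are control arrays, and genes run down the page by metabolic step. The resveratrol arrays lie left of the control arrays in 20 of 28 genes, with the widest gap at Mut, and right of them at Abat.

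The arrays also differed in ways that cross the groups. The summed signal of the hybridisation spikes was 25668 to 29301 on resveratrol replicate 1 and control replicates 1 and 2, and 16258 to 18185 on the other arrays. Within the arrays of brighter spikes the 28 genes had a median change of -0.50, and within the dimmer ones -0.52. With this split as a block 18 of the genes fell and 0 rose. Among markers of fat cells, 4 of 9 tested fell (Slc2a4, Cidec, Retn and Cd36) and 0 rose, with a median of -0.31. Lep was too dim to test. All 9 changes lay below 0, and in 5 genes the groups lay apart. Fabp4 did not pass at its brightest probe set (-0.22), but dimmer ones fell, at -0.67 and -0.51, and a further one had -0.14. The summed intensity of the 10 fat cell markers with a probe set was 39206 to 47133 in resveratrol arrays and 42376 to 60966 in control arrays, so these ranges overlapped. The brightest of them weigh most in this sum. Fabp4, Lpl and Adipoq had their lowest control values, 8760, 6116 and 6394, in control replicate 3. The summed intensity of the 29 pathway genes was 23651 to 25265 in resveratrol arrays and 32547 to 35171 in control arrays, and did not overlap. Of 7 tested preadipocyte and fibroblast markers 1 rose, Thy1, with a list median of 0.03; their sum was 17648 to 21320 in resveratrol arrays and 18567 to 21134 in control arrays, and Cd34, Gata3 and Wnt10b were too dim to test. Of 5 tested macrophage markers 1 rose, Cd14, and Ptprc and Itgam were too dim to test. The summed intensity of the 7 listed genes was 386 to 439 in resveratrol arrays and 281 to 358 in control arrays. These genes were dim, with a mean of at most 126 (Cd14) in resveratrol arrays, where the dimmest probe set tested had 20.36 over all arrays. The part of these markers in the changes of the pathway was not tested.

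The aminotransferase step showed 1 isoform lower. Bcat2, the mitochondrial enzyme, had intensities of 1095, 1059 and 888 in resveratrol arrays, against 1816, 1701 and 1528 in control arrays. Every treated array lay below every control array. The change was -0.72 ± 0.10 (SE, n = 3 a group) with adjusted p = 0.00113 by limma, 39.7% lower in mean intensity. Bcat1, the cytosolic enzyme, did not pass, at 76.1, 82.6 and 100.1 in resveratrol arrays, against 55.5, 80.5 and 93.4 in control arrays. The groups overlapped, and the change of 0.16 (95% interval -0.21 to 0.53) became -0.014 without control replicate 1. A further Bcat1 probe set had 68.6, 53.3 and 80.8 in resveratrol arrays, against 42.5, 47.5 and 23.8 in control arrays, with no overlap. Its change of 0.65 did not pass (limma adjusted p = 0.0761), but passed with the spike split as a block, at 0.76 with adjusted p = 0.0458.

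All 3 measured genes of the branched-chain ketoacid dehydrogenase complex fell. Bckdhb, the beta subunit of the decarboxylase, had 1167, 1219 and 1195 in resveratrol arrays, against 1918, 1926 and 1826 in control arrays. Dbt, the transacylase core on which the complex is built, had 841, 858 and 853 in resveratrol arrays, against 1255, 1449 and 1497 in control arrays. In both genes the treated arrays lay close together and well below the controls. The changes were -0.66 ± 0.07 (SE) with limma adjusted p = 0.000243 for Bckdhb and -0.71 ± 0.08 with adjusted p = 0.000435 for Dbt. Bckdha, the alpha subunit of the decarboxylase, had 509, 458 and 402 in resveratrol arrays, against 672, 613 and 594 in control arrays. The groups did not overlap, and the change was -0.45 ± 0.09 with adjusted p = 0.0146. Bckdha missed the threshold without resveratrol replicate 2 (adjusted p = 0.0515). Dld, the dehydrogenase subunit that this complex shares with pyruvate and oxoglutarate dehydrogenase, also fell, by 0.47 on the log2 scale (limma adjusted p = 0.00259).

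Of the enzymes that set the activity of the complex, the phosphatase gene fell and the kinase gene did not pass. Ppm1k, the phosphatase that switches the complex on, had 65.2, 96.0 and 119 in resveratrol arrays, against 176, 182 and 185 in control arrays. The controls lay close together and the treated arrays were spread out below them. The change was -0.88 ± 0.16 (SE), 48.4% lower, with limma adjusted p = 0.00716, and a dimmer probe set of the gene had -0.39 (adjusted p = 0.182). Bckdk, the kinase that switches the complex off, had 382, 310 and 336 in resveratrol arrays, against 402, 424 and 417 in control arrays. The groups lay apart, but the change of -0.27 (95% interval -0.46 to -0.07) did not pass, with adjusted p = 0.0939. The intervals of the kinase and the phosphatase did not overlap at their brightest probe sets, where Ppm1k ran from -1.23 to -0.53; the difference itself was not tested.

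**Figure D2:**
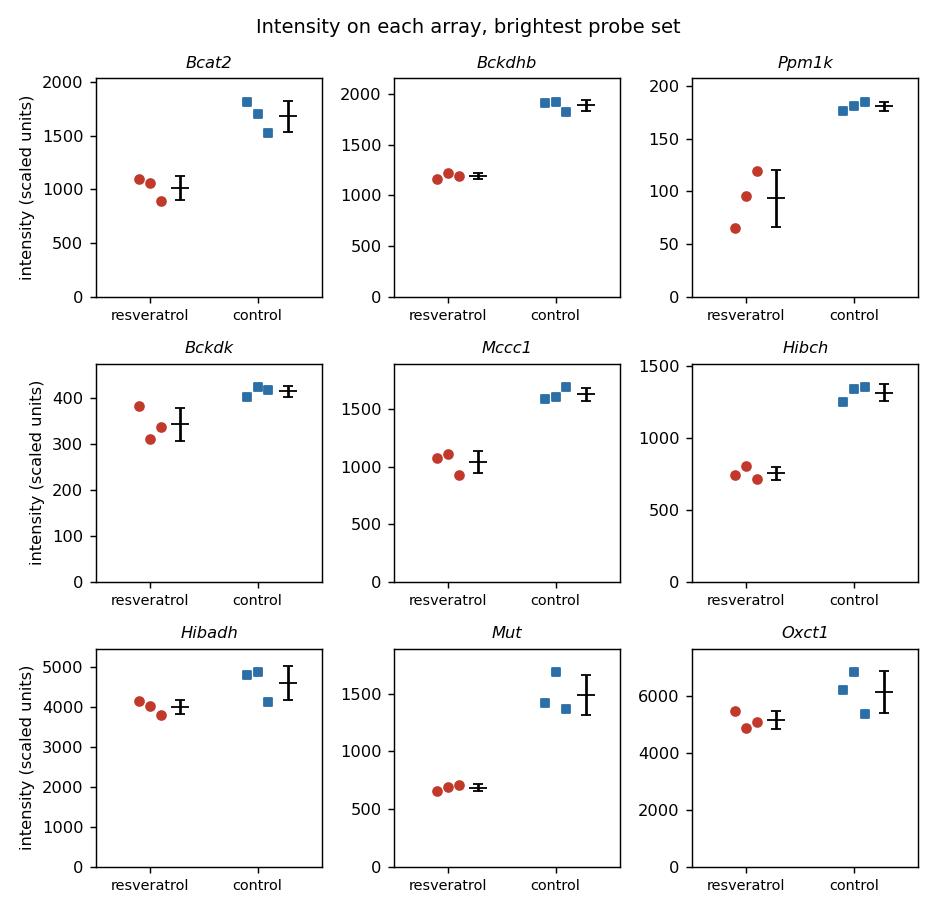
Scaled intensity of 9 genes on each array at the brightest probe set, resveratrol (circles) left and control (squares) right, with the mean and SD of 3 arrays in black; each axis starts at 0. Mut lies at 658 to 711 in resveratrol arrays against 1367 to 1686 in control arrays, while Hibadh and Oxct1 overlap between the groups.

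The leucine arm fell at each of its 4 measured steps and subunits. Ivd, the isovaleryl-CoA dehydrogenase, had 699, 925 and 609 in resveratrol arrays, against 1209, 1180 and 1080 in control arrays. Resveratrol replicate 2 was the highest treated array, yet below all controls. The change was -0.64 ± 0.13 (SE) with limma adjusted p = 0.0104, and a dimmer probe set of the gene had -0.35 (adjusted p = 0.0969). Mccc1, the biotin-carrying subunit of methylcrotonyl-CoA carboxylase, had 1080, 1110 and 932 in resveratrol arrays, against 1587, 1608 and 1694 in control arrays. Mccc2, the other subunit of that enzyme, had 138, 182 and 136 in resveratrol arrays, against 353, 275 and 257 in control arrays. Both subunits were thus lower on every treated array than on any control array. The changes were -0.64 ± 0.08 with adjusted p = 0.000909 for Mccc1 and -0.88 ± 0.14 with adjusted p = 0.00273 for Mccc2. All 3 probe sets of Mccc2 fell, the dimmer ones by 0.66 and 0.61, while a dim further probe set of Mccc1 had -0.27 and did not pass. Auh, which hydrates methylglutaconyl-CoA and also binds AU-rich RNA, had 337, 350 and 340 in resveratrol arrays, against 499, 470 and 504 in control arrays. Its groups lay apart, with a change of -0.50 ± 0.07 and adjusted p = 0.00209. The call of Auh rests on this probe set: its other tested probe sets, of mean intensity 26.3 to 36.9 in treated cells, had -0.23, -0.17 and 0.13, and the mean over the tested probe sets was -0.19 (adjusted p = 0.314).

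The promoters of these 4 genes, which fell together, are given from 250 bases before to 50 bases after the annotated start, from RefSeq on GRCm38.p6, read along the gene. Capitals mark CCAAT or its reverse complement ATTGG.
Ivd promoter, chr2:118861744-118862043, plus strand: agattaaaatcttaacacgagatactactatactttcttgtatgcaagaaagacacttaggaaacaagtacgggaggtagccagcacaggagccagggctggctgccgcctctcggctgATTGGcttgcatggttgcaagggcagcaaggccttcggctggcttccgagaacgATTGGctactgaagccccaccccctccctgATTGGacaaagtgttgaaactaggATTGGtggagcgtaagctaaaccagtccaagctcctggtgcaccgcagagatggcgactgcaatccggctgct
Mccc1 promoter, chr3:36000629-36000928, minus strand: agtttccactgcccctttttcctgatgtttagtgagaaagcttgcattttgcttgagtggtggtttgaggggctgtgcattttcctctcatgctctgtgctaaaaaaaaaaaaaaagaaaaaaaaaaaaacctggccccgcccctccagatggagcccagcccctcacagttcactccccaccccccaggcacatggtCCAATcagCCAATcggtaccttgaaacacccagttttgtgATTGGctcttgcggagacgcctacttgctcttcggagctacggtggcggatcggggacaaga
Mccc2 promoter, chr13:100015590-100015889, minus strand: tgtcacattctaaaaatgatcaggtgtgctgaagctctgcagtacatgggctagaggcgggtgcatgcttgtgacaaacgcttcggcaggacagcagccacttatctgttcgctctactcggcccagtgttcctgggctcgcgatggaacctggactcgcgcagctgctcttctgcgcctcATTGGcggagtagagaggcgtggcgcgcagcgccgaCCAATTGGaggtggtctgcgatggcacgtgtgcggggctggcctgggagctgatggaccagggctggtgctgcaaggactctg
Auh promoter, chr13:52929628-52929927, minus strand: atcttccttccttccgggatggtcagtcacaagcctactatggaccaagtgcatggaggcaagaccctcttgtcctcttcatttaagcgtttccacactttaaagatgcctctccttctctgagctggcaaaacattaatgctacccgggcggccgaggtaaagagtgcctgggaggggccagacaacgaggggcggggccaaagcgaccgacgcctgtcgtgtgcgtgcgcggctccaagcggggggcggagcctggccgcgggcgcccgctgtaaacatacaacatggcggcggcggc
The window of Ivd held 4 such matches, those of Mccc1 and Mccc2 held 3 each, and that of Auh held 0. On both strands, with overlaps allowed, CCAAT occurred in 18 of the 32 windows that RefSeq gives for 25 of the 29 genes, or 56.2%, and in 37.4% of all 32851 windows of that length. In Mccc2 a match on each strand overlaps in 1 run of capitals. The nuclear receptor half-site AGGTCA, repeated after 1 base of any kind, occurred in 0 of the 32 windows and in 0.0396% of all, and the extended half-site TCAAGGTCA in 0 of the 32 and in 0.423% of all. These are letter matches, and windows without a match, such as those of Bcat2, Hibch and Acadsb, belong to genes that fell as well. Among genes that did not pass, windows of Acad8, Bckdk, Hibadh, Hsd17b10 and Bcat1 held CCAAT, and those of Mmachc, Mmaa and Oxct1 did not. A link between CCAAT and the falls was not tested.

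In the valine and isoleucine arms 4 of 7 genes fell and 3 did not pass, though all 7 changes lay below 0. Hibch, the hydroxyisobutyryl-CoA hydrolase of the valine arm, had 740, 804 and 717 in resveratrol arrays, against 1247, 1340 and 1353 in control arrays. Aldh6a1, the methylmalonate semialdehyde dehydrogenase that ends the arm in propionyl-CoA, had 1166, 1155 and 1058 in resveratrol arrays, against 1744, 1760 and 1802 in control arrays. No treated array of either gene reached the controls. The changes were -0.79 ± 0.08 (SE) with limma adjusted p = 0.00013 for Hibch and -0.65 ± 0.07 with adjusted p = 0.000361 for Aldh6a1. The dimmer probe set of Hibch had -0.51 (adjusted p = 0.0562), and fell with the spike split as a block, at -0.64 with adjusted p = 0.00802. Acadsb, the acyl-CoA dehydrogenase of the isoleucine arm, had 335, 345 and 348 in resveratrol arrays, against 558, 557 and 619 in control arrays. The treated arrays were almost equal and lay below all controls, with a change of -0.73 ± 0.08 and adjusted p = 0.000224, at a probe set whose design may cross-hybridise. Acat1, the mitochondrial thiolase that ends the isoleucine arm and also serves ketone bodies, had 2255, 2299 and 2179 in resveratrol arrays, against 3340, 3007 and 3144 in control arrays. Its change was -0.49 ± 0.08 with adjusted p = 0.00308, and its further probe sets also fell, with -0.53 and -0.66.

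The other genes of these arms did not pass. Acad8, the isobutyryl-CoA dehydrogenase of the valine arm, had -0.19 (95% interval -0.40 to 0.02, adjusted p = 0.294 by limma), with 298, 279 and 250 in resveratrol arrays, against 347, 315 and 287 in control arrays. Hibadh, the hydroxyisobutyrate dehydrogenase, had intensities around 4000, with 4157, 4024 and 3808 in resveratrol arrays, against 4810, 4878 and 4122 in control arrays. Resveratrol replicate 1 lay above control replicate 3, and the change was -0.20 (95% interval -0.40 to 0.0026, adjusted p = 0.237), but passed without control replicate 3, at -0.28 with adjusted p = 0.0476. Hsd17b10, a dehydrogenase of the isoleucine arm that is also a subunit of mitochondrial ribonuclease P, had -0.16 (95% interval -0.33 to 0.02, adjusted p = 0.283). Its further probe set had 0.05. At the brightest probe sets, the intervals of Hibadh and Hsd17b10 did not overlap that of Hibch, which ran from -0.95 to -0.62. The interval of the dimmer Hibch probe set, from -0.83 to -0.19, overlapped both. The difference was not tested.

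Every gene from propionyl-CoA to succinyl-CoA fell. Mut (now named Mmut), the methylmalonyl-CoA mutase that ends the route, had the deepest fall of the 28 genes at the brightest probe sets. It had 658, 691 and 711 in resveratrol arrays, against 1415, 1686 and 1367 in control arrays. The highest treated array was far below the lowest control. The change was -1.09 ± 0.09 (SE), 53.9% lower, with limma adjusted p = 3.9e-05. A further probe set gave 471, 513 and 520 in resveratrol arrays, against 1018, 1104 and 1183 in control arrays, a change of -1.11 ± 0.08 with adjusted p = 1.57e-05. The mutase thus fell by nearly the same amount at both of its tested probe sets, and its remaining one was too dim to test. By depth of fall Mut ranked 65 among the 12630 genes tested.

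Propionyl-CoA carboxylase is built of the biotin-carrying Pcca and of Pccb. Pcca had 801, 869 and 767 in resveratrol arrays, against 1167, 1215 and 1211 in control arrays. Pccb had 532, 489 and 397 in resveratrol arrays, against 746, 777 and 719 in control arrays. In both subunits the groups lay apart. The changes were -0.55 ± 0.07 (SE) with limma adjusted p = 0.00113 for Pcca and -0.65 ± 0.10 with adjusted p = 0.00285 for Pccb. A dim probe set of Pcca had -0.05, and the mean over both probe sets missed the threshold, at -0.30 with adjusted p = 0.0573. Mcee, the epimerase between the carboxylase and the mutase, had 345, 395 and 335 in resveratrol arrays, against 504, 464 and 464 in control arrays. Its groups lay apart, with -0.40 ± 0.09 and adjusted p = 0.0156, and it missed the threshold without resveratrol replicate 1 (adjusted p = 0.0667) and without resveratrol replicate 3 (adjusted p = 0.0549). At the brightest probe sets, the interval of Mut, from -1.29 to -0.90, overlapped none of those of Pcca, Pccb and Mcee. Those lay between -0.87 and -0.21, and these differences were not tested.

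Of 3 genes that handle the cobalamin cofactor of the mutase, 1 fell. Mmab, which makes adenosylcobalamin, had 287, 271 and 269 in resveratrol arrays, against 372, 331 and 350 in control arrays. The groups lay apart and the change was -0.33 ± 0.08 (SE, limma adjusted p = 0.0301), with a further probe set at -0.34 (adjusted p = 0.041) and dimmer ones at -0.23 and -0.07 that did not pass. The call of Mmab was lost on leaving out any single array, with adjusted p from 0.0563 without control replicate 2 to 0.103 without resveratrol replicate 2, and with the spike split as a block (adjusted p = 0.0699). Mmaa, a helper protein that loads the mutase, had -0.12 (95% interval -0.43 to 0.19), and Mmachc, which processes incoming cobalamin, had 0.19 (95% interval -0.10 to 0.48). Neither passed, with adjusted p = 0.708 and 0.471, and in both the groups overlapped.

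**Figure D3:**
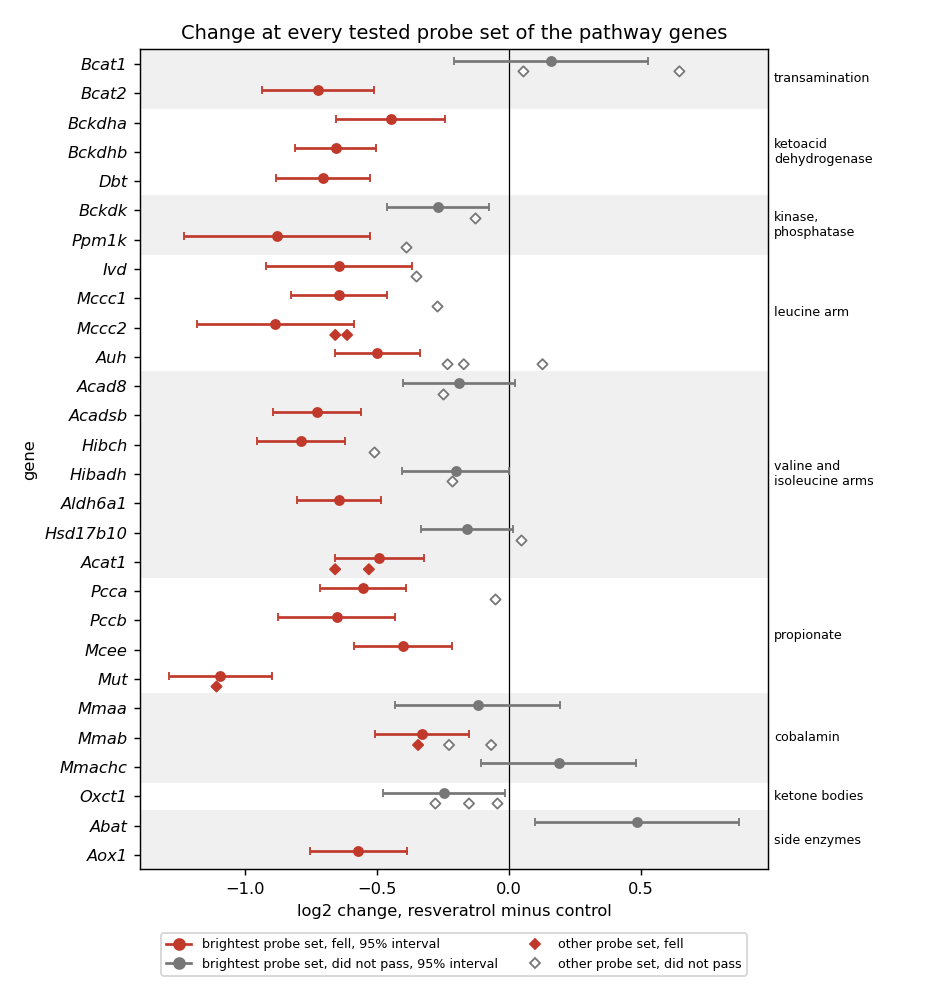
Log2 change, resveratrol minus control, at each of the 53 tested probe sets of the 28 genes; circles with 95% intervals are brightest probe sets, diamonds are further probe sets, and red marks a fall that passed. All 3 probe sets of Mccc2 and of Acat1 and both of Mut are red, while the further probe sets of Auh lie at -0.23, -0.17 and 0.13 and that of Pcca at -0.05.

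Oxct1 and Bdh1, the genes listed for ketone bodies, gave no call, while Acat1, which also serves ketone bodies, fell as given above. Oxct1, the transferase that activates acetoacetate outside the liver, had intensities above 4000 on every array, with 5475, 4869 and 5096 in resveratrol arrays, against 6186, 6829 and 5354 in control arrays. The groups overlapped through resveratrol replicate 1 and control replicate 3. The change was -0.24 (95% interval -0.48 to -0.01, limma adjusted p = 0.202), -0.18 with the spike split as a block, and it passed without control replicate 3 (-0.34, adjusted p = 0.0351) and with quantile normalization (-0.17, adjusted p = 0.0364). Its further probe sets had -0.04, -0.28 and -0.15, and none passed. Bdh1, the hydroxybutyrate dehydrogenase, lay below the level tested, at 0.8, 0.7 and 1.7 in resveratrol arrays, against 0.979, 1.8 and 1.6 in control arrays.

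The side enzymes went apart. Aox1, an aldehyde oxidase, had 226, 239 and 227 in resveratrol arrays, against 339, 333 and 380 in control arrays. All treated arrays were lower, and the change was -0.57 ± 0.08 (SE) with limma adjusted p = 0.00213. Abat, the mitochondrial transaminase of GABA and beta-alanine, was near the dim end, with 35.3, 30.7 and 28.5 in resveratrol arrays, against 14.3, 17.4 and 22.3 in control arrays. The treated arrays were all higher, but the change of 0.49 (95% interval 0.10 to 0.87) did not pass, with adjusted p = 0.125.

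A list of further genes linked to these routes by shared subunits, electron transfer, transport, cofactors or regulation was read in the same fit. Of 35 tested, 15 fell and 0 rose, with a median of -0.29, but the count was 9 without resveratrol replicate 1. Klf15, a transcription factor known to promote branched-chain amino acid catabolism, had the smallest p. It averaged 308 in resveratrol arrays and 556 in control arrays, a change of -0.82 ± 0.08 (SE) with limma adjusted p = 0.00012. Genes of electron transfer from Ivd, Acad8 and Acadsb onward fell in part. Etfa had -0.71 and Etfdh -0.58, both past the threshold, while Etfb had -0.31 (limma adjusted p = 0.0866). The subunits of succinyl-CoA ligase, which takes up the product of the mutase, differed, with Sucla2 at -0.51, Suclg1 at -0.48 and Suclg2 at -0.07 (adjusted p = 0.63); Suclg1 missed the threshold without resveratrol replicate 1 (adjusted p = 0.055). Slc16a1, a carrier of lactate, pyruvate and ketone bodies, fell by 0.51 on the log2 scale. Hadha, Hadhb and Acaa2, enzymes of the fatty acid spiral, had -0.66, -0.49 and -0.74 and passed. The remaining falls, named after their values were seen, were Echs1, Abcd4, Acsf3, Aldh5a1 and Aldh2. All but Aldh2 lay near the threshold, with limma adjusted p from 0.0444 (Acsf3) to 0.0498 (Echs1). Carriers of branched-chain amino acids did not pass, with Slc7a5 at 0.12, Slc3a2 at 0.14, Slc43a1 at -0.47 (adjusted p = 0.0581) and the mitochondrial carrier Slc25a44 at -0.0081. The methionine synthase genes Mtr and Mtrr, the other cobalamin-dependent step of the cell, had 0.34 and 0.30 and did not pass (adjusted p = 0.0764 and 0.0866).

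Neighbouring oxidation routes were read in the same fit. Of 18 tested genes of fatty acid oxidation 13 fell and 0 rose, a share of 72.2% with a median of -0.56, and of 16 tested genes of the citrate cycle 10 fell and 0 rose, a share of 62.5% with a median of -0.38. The share among the branched-chain, propionate and ketone genes was 67.9%. The further genes share 8 members with the list of fatty acid oxidation and 4 with that of the citrate cycle, and without these 6 of 23 tested fell, a share of 26.1% with a median of -0.13.

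**Figure D4:**
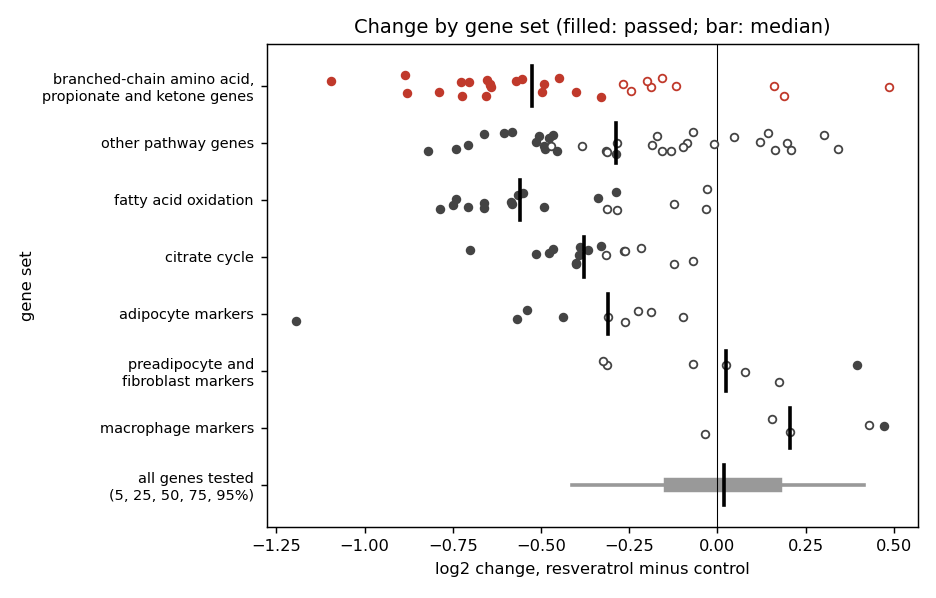
Log2 change, resveratrol minus control, of each tested gene by gene set; filled points passed the test, black bars are medians, and the grey bar shows the 5th, 25th, 75th and 95th percentiles of all 12630 genes tested. The branched-chain, propionate and ketone genes have a median of -0.53 and the fatty acid oxidation genes one of -0.56, against 0.02 for all genes.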

How the data were processed

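The deposited values are intensities, 1 per probe set on a linear scale, for 6 one-colour arrays with target labelled with biotin as Affymetrix recommends, per the labels' protocols. How probes were summarised is not given in these sources. All 6 columns have the same trimmed mean of 150 (2% removed from either end), so the authors' intensity values carry 1 scaling factor per array, as read from the values, and any level-dependent difference between arrays remains. In control replicate 1 only 0.789% of values have at most 1 decimal, against 100% in each of the other arrays. Whether that column was processed in another way is not given. Of 45101 probe sets, 64 control probe sets were left out and 34945 name 1 gene in the platform annotation. Mut was found through its current symbol in RefSeq.

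Values were turned into log2(intensity + 16), where a dim probe set shows less than its true change. Testing covered the top 60% by mean on that scale (27022 probe sets) and used limma 3.58.1 in R 4.3.3, with lmFit and a trended eBayes; p-values are 2-sided and adjusted by Benjamini and Hochberg over all of these. The fit was also run on simulated arrays with independent noise, which lack the differences between arrays described above and cannot address them. The probe set of highest mean stands for its gene. Array number, not depth, limits precision. Values by array are given for each gene past the threshold and, in steps with none, for the gene of smallest p; some others were added after their values were seen. Of the further genes, at most 10 with the smallest p are named as falls, with the exceptions stated. Members, lists and tests were chosen with earlier results of these data known. As alternatives, arrays were quantile normalized, the offset was set to 1 or 64, the filter was dropped or set to the top 40%, the trend was dropped, replicate number or spike split was blocked, probe sets were averaged by gene, and arrays were left out in turn. Figures were drawn with Python 3.11.15 and matplotlib 3.10.9.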

Additional observations from a re-analysis of the deposited data

How the results depend on the processing

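Of the 19 pathway genes that fell, 13 kept their call under all 15 alternatives; the exceptions were Bckdha, Ivd, Mcee, Mmab, Auh and Pcca. Between 15 (no intensity trend) and 20 of the 28 genes fell. Without an intensity trend 861 probe sets changed over the whole table and 9 of the further genes, and Ivd missed the threshold (adjusted p = 0.0714), as did Bckdha, Mcee, Mmab and Suclg1; without a filter 1396 probe sets changed, where more probe sets were tested. Leaving out 1 array gave 1131 to 1952 changed probe sets, against 2209, then 22 to 26 probe sets and 17 to 20 genes of the pathway, and 9 to 14 further genes. Bcat1 ranged from -0.014 without control replicate 1 to 0.29 without control replicate 3. The causes were not tested. With the replicate number as a block 1894 probe sets changed, with 25 probe sets and 19 genes of the pathway and 12 further genes. Same-numbered arrays had correlations of their deviations of -0.061, -0.016 and 0.093, and differently numbered ones had -0.082 to 0.094. Deviations from means of 3 arrays cannot tell whether same-numbered arrays share a culture or batch, so pairing is not known. Brightness limits Abat, whose values lie near the dim end of the array, and Bdh1, which was below the level tested.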
